A study of Mus musculus with 6 samples.

Results

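The kynurenine route of tryptophan breakdown was followed across mouse small cell lung cancer tumours with and without Keap1. Its 8 genes, Tdo2, Ido1, Ido2, Afmid, Kynu, Kmo, Haao and Qprt, were chosen by name and matched to 8 of the 56980 Ensembl identifiers of the count table. The set was proposed with an earlier result in view, the difference in Tdo2 between the genotypes, so the contrast of knockout with control is given for these genes as a description. Messenger RNA had been sequenced from 3 control and 3 Keap1 knockout tumours of a mouse model labelled QKO, which the controls also carry, about 4 months after virus was given. The study had screened 18 putative tumour suppressors in this cancer, and the comparison asks what loss of Keap1, which normally keeps NRF2, the activator of antioxidant genes, at a low level, does to gene expression. The labels state neither the alleles behind QKO, how Keap1 was inactivated, nor the sex or age of the mice, and they leave unsaid whether each tumour sample was from its own mouse. The p-values therefore measure the spread between these samples, which may be partly technical.

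The route begins when a dioxygenase opens the indole ring of tryptophan. TDO, encoded by Tdo2, does this mainly in liver, whereas IDO1 is induced by interferon gamma in many tissues and IDO2 is its less active relative. Afmid encodes the formamidase that releases kynurenine, a ligand of the aryl hydrocarbon receptor. The product is hydroxylated by KMO, cleaved by kynureninase (Kynu) and oxidised by HAAO toward quinolinate, which QPRT turns into a precursor of NAD. In tumours the route is known for depleting tryptophan and for dampening T cells.

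Promoter sequences are shown for 3 of the enzymes: Tdo2, on which the results turn, Afmid, the other member whose groups did not overlap, and Qprt, the last step, whose knockout levels spanned 7.18-fold. RefSeq windows (GRCm38.p6) matched 5 of the 8 members. Each sequence is the 250 bases before the annotated start, and the capitals mark matches, on either strand, to 4 motifs: TGANNNNGC (a loose form, with its 4th base left free, of the core of the antioxidant response element bound by NRF2), GCGTG (core of the aryl hydrocarbon receptor element), TGTTCT (glucocorticoid receptor motif) and TTCNNNGAA (interferon-gamma activated site).
Tdo2, chr3:81975729-81975978, minus strand: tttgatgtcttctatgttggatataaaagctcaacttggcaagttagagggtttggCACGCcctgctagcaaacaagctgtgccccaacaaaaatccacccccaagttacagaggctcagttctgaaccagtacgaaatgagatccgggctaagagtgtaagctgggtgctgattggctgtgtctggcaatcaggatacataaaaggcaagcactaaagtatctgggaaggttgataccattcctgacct
Afmid, chr11:117825669-117825918, plus strand: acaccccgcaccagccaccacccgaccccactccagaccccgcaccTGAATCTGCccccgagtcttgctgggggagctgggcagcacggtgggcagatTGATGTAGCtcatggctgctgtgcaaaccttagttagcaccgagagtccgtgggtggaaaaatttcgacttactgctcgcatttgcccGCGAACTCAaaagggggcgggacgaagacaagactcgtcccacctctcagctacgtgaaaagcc
Qprt, chr7:127122030-127122279, minus strand: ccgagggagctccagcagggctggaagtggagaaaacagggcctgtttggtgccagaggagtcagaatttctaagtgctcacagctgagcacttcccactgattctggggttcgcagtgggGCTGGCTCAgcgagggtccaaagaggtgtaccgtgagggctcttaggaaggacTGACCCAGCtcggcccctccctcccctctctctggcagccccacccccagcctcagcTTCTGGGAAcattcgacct
The Tdo2 window held 0 matches to the loose antioxidant response element pattern and 1 to the aryl hydrocarbon receptor core. The Afmid window held 3 matches to the loose pattern, and the Qprt window held 2 of them and 1 interferon-gamma activated site. Of all 32817 promoter windows of this length, 35.2% held the loose antioxidant response element pattern, 28.1% the aryl hydrocarbon receptor core, 16.1% the glucocorticoid receptor motif and 7.01% the interferon-gamma activated site. These letters are a description of the windows and do not show binding.

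Total counts ran from 18731515 to 23759892 per library, and 17901 genes passed the filter on low counts. Keap1 itself had 78.4, 74.5 and 58.7 CPM (reads scaled to a common library size) in the 3 controls against 67.5, 93.0 and 79.9 CPM in the 3 knockouts, so its transcript level does not check the labels. Of 9 NRF2 targets listed as such a check, all 9 lay higher in every knockout than in every control library, as did 21.5% of all tested genes. By edgeR's quasi-likelihood test, 6 of the 9 were called higher at an adjusted p below 0.05, against 2.42% of all tested genes. Their summed level was 564.9 to 1220.5 CPM in controls and 16084.9 to 22210.2 CPM in knockouts. The control libraries differed widely among themselves: 5 basal and squamous genes summed to 6866.3 CPM in control 1, 7 fibroblast genes to 34325.3 CPM in control 2 and 8 neuroendocrine genes to 4839.9 CPM in control 3. In the knockouts the 8 neuroendocrine genes, the defining markers of the labelled tumour type, summed to 54.5 to 213.6 CPM, and Neurod1 had 0 reads there. In controls 1 and 2 that sum was 106.3 and 72.9 CPM.

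Tdo2 was the member with the largest difference between the genotypes. It had 9, 12 and 3 reads in controls 1 to 3, or 0.457, 0.595 and 0.149 CPM. In knockouts 1 to 3 it had 447, 3932 and 3870 reads, or 20.8, 180.0 and 170.1 CPM. Every knockout library was above every control library, and the lowest knockout was 35.1 times the highest control (95% counting interval 19.9 to 68.4). The mean was 0.400 ± 0.228 CPM over controls but 123.7 ± 89.2 CPM over knockouts (SD, n = 3 each), with a fitted log2 fold change of 8.25 ± 1.12 (SE). The authors' deposited table gives Tdo2 a log2 fold change of 8.26.

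**Figure D1:**
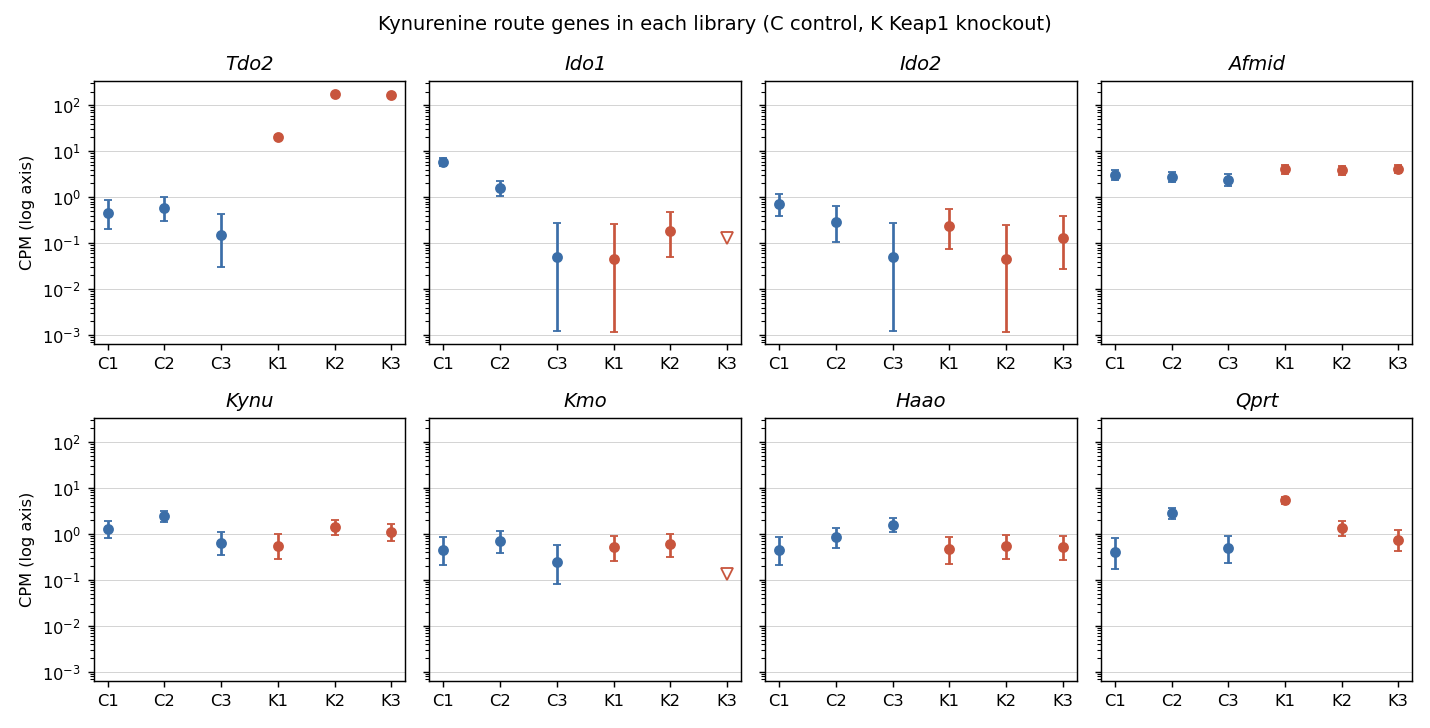
Level of each of the 8 genes in CPM on a log axis, in controls 1 to 3 (C1 to C3, blue) and Keap1 knockouts 1 to 3 (K1 to K3, red). Bars are 95% Poisson intervals of the reads (counting error only), and open triangles mark 0 reads, drawn at the level of 3 reads. Tdo2 lies at 0.149 to 0.595 CPM in controls and 20.8 to 180.0 CPM in knockouts, and Ido1 lies highest in control 1, at 5.84 CPM.

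The knockouts did not share a single Tdo2 level. Knockout 2 held 8.64 times as much as knockout 1 (95% counting interval 7.83 to 9.55) and knockout 3 held 8.16 times as much (7.40 to 9.02), whereas knockouts 2 and 3 differed by a ratio of 0.945. The standard deviation of its log2 CPM among knockouts was 1.77, against a median of 0.155 over 11780 tested genes with a knockout mean of at least 5 CPM, and 42 of those genes had a larger one. Among the same genes, Xist and Zfp984 were the only others whose level in knockout 1 was at least as far below that in both other knockouts. Xist, the RNA that silences an X chromosome in female cells, stood at 0.280 CPM in knockout 1 and at 1291.0 and 1429.1 CPM in knockouts 2 and 3. In the controls Xist reached 1496.5 CPM in control 2 and at most 2.33 CPM in the other two, while Tdo2 was at most 0.595 CPM in all of them. With Xist log2 CPM added to the model, a fit chosen after the data were seen, the log2 fold change of Tdo2 was 7.38 ± 0.60 (SE, edgeR adjusted p = 0.0408). Xist was picked because it shared the low level in knockout 1, so this fit describes the libraries, and the part of Xist or of sex in the Tdo2 level was not tested.

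Some markers of normal lung epithelium had the same order as Tdo2 among the knockouts. Of 8 such genes, 6 were lowest in knockout 1, and the surfactant gene Sftpb and the ciliated cell gene Foxj1 were lowest in knockout 3. Together the 8 summed to 3205.7 CPM in knockout 1 and to 7840.6 and 7249.6 CPM in knockouts 2 and 3. In the controls the sum ran from 284.9 to 2699.0 CPM, and none of the 8 was at 0 in any library. The club cell gene Scgb1a1 made up most of the sum in knockout 3: without it the other 7 summed to 1632.2, 4339.5 and 1919.0 CPM in knockouts 1 to 3. The part of normal lung tissue in the Tdo2 level was not tested. Liver genes had another order. The 13 hepatocyte genes summed to 125.9, 43.5 and 32.4 CPM in knockouts 1 to 3 and to 12.9 to 154.5 CPM in controls. Of these sums, Ttr held 46.7, 20.6 and 13.5 CPM and Hnf4a 35.7, 21.5 and 9.05 CPM in knockouts 1 to 3. In control 3 Ttr alone held 152.5 of the 154.5 CPM. Albumin (Alb) stood at 29.7, 0.0458 and 4.79 CPM in knockouts 1 to 3, and the liver enzyme genes Tat and Hpd had at most 5 and 2 reads in any library. In bulk tissue, more cells of a type and more RNA per cell cannot be told apart.

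Ido1, the interferon-inducible counterpart of Tdo2, had the opposite arrangement but did not separate the groups. It had 115, 32 and 1 reads in controls 1 to 3, or 5.84, 1.59 and 0.0498 CPM. The knockouts had 1, 4 and 0 reads, or 0.0466, 0.183 and 0 CPM, where 0 reads in knockout 3 allow up to 0.132 CPM, the level of 3 reads. Control 3 was as low as the knockouts, so the groups overlapped. Pooled over each group, 148 control reads against 5 knockout reads made Ido1 32.6-fold lower in the knockouts (95% counting interval 13.7 to 101.9), and 115 of those 148 reads came from control 1. The authors' deposited table gives a log2 fold change of -5.03 for Ido1, with an adjusted p of 0.0159 by DESeq2 over all 6 samples.

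Ido2, which lies next to Ido1 on chromosome 8, was sparse everywhere. It had 14, 6 and 1 reads in controls 1 to 3 against 5, 1 and 3 reads in knockouts 1 to 3, at most 0.711 CPM. The groups overlapped, and its highest library was control 1, as for Ido1. Neither gene passed the filter on low counts. In a fit without that filter the log2 fold change was -4.89 ± 1.69 (SE) for Ido1 and -1.29 ± 1.10 for Ido2.

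Which dioxygenase supplied most of the entry transcript therefore differed between libraries. Per kilobase of exon, Ido1 made up 91.1%, 78.7% and 34.3% of the summed level of the 3 entry genes in controls 1 to 3, and Tdo2 3.35%, 13.9% and 48.4%. In control 3 these shares rest on 3 reads of Tdo2, 1 of Ido1 and 1 of Ido2. In knockouts 1 to 3, Tdo2 made up 98.4%, 99.8% and 99.9%. The summed level itself was 3.51, 1.10 and 0.0795 CPM per kb in controls and 5.46, 46.5 and 43.9 CPM per kb in knockouts. Control 1, mostly through Ido1, was the control nearest to knockout 1.

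**Figure D2:**
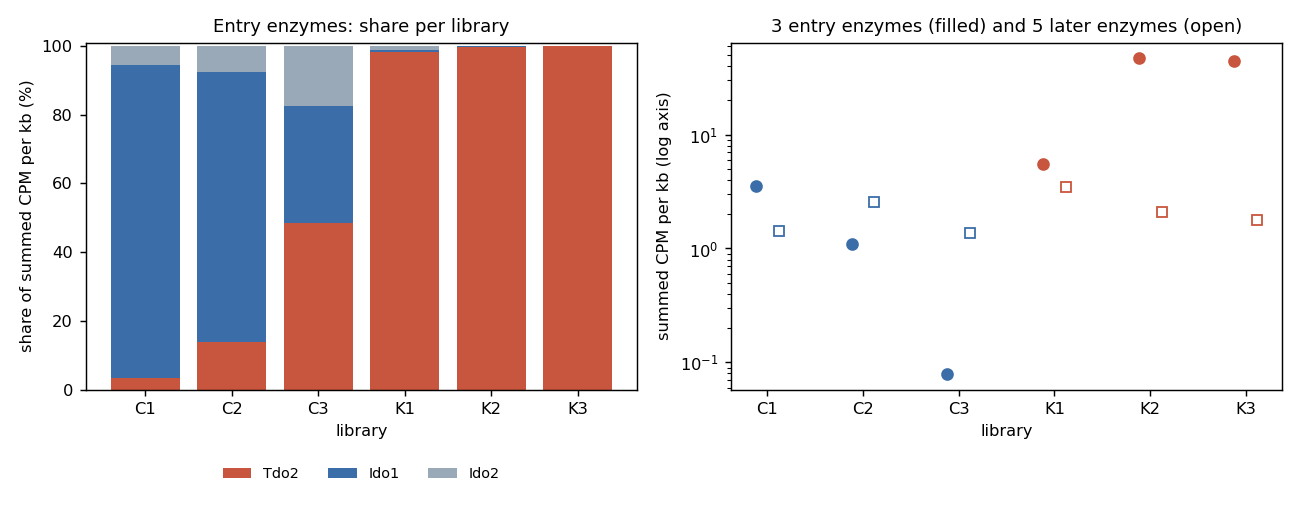
Left, share of Tdo2, Ido1 and Ido2 in their summed level per kilobase of exon (%), for controls (C1 to C3) and knockouts (K1 to K3). Right, summed CPM per kb on a log axis of the 3 entry genes (filled circles) and the 5 later genes (open squares), with controls in blue and knockouts in red. Tdo2 makes up at least 98.4% of the entry level in each knockout, while the 5 later genes stay between 1.36 and 3.49 CPM per kb in all libraries.

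The 5 later enzymes spanned a narrower range. Together they summed to 1.41, 2.57 and 1.36 CPM per kb in the controls, in order, and to 3.49, 2.08 and 1.77 CPM per kb in the knockouts. The entry level over this sum was 2.48, 0.429 and 0.0583 in controls and 1.57, 22.4 and 24.8 in knockouts. The ratio in knockout 1 lay below that of control 1, so the groups overlapped.

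Afmid varied little within each genotype, averaging 2.74 ± 0.329 CPM over controls but 4.07 ± 0.166 CPM over knockouts (SD). It had 60, 56 and 48 reads in controls 1 to 3 (3.05, 2.77 and 2.39 CPM) and 88, 85 and 96 reads in knockouts 1 to 3 (4.10, 3.89 and 4.22 CPM). The groups did not overlap, with a log2 fold change of 0.57 ± 0.34 (SE), or 1.49-fold. Its neighbours on chromosome 11, in the gene order of GRCm38.p6, are the thymidine kinase gene Tk1 and Birc5, which encodes survivin, both tied to cell division. Tk1 ranged from 68.6 to 156.0 CPM among controls and from 241.7 to 272.9 CPM among knockouts, and Birc5 from 74.6 to 136.0 and from 202.9 to 235.7 CPM. Neither passed the edgeR test, with adjusted p of 0.0823 and 0.0876.

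Kynu and Kmo were low in both genotypes and overlapped. Kynu had 25, 49 and 13 reads in controls 1 to 3 against 12, 31 and 25 reads in knockouts 1 to 3, with levels from 0.560 to 2.43 CPM. Kmo had 9, 14 and 5 reads in controls against 11, 13 and 0 reads in knockouts, where 0 reads again allow 0.132 CPM, the level of 3 reads. Control 2 was the highest library for both, though for Kmo only by 14 reads against 13 in knockout 2. KMO is known from macrophages and microglia, and the 12 macrophage markers also summed highest in control 2, at 1660.8 CPM. They summed to 1238.9 and 361.8 CPM in controls 1 and 3 and to 667.3, 1365.2 and 831.9 CPM in knockouts 1 to 3. The order was not shared throughout: knockout 3, with 0 Kmo reads, had a higher sum than control 3, with 5 reads. Lyz2 alone made up 599.4 CPM of the sum in control 2 and 1003.7 of the 1365.2 CPM in knockout 2. Of the 12 markers, 9 had a negative log2 fold change (median -1.10), and edgeR called 0. In 4 of the 12 every knockout lay below every control, as in 19.1% of all tested genes. None of these markers was at 0 in control 2, Siglecf was at 0 in control 3, and the part of macrophages in the Kmo level was not tested. The log2 fold changes were -0.49 ± 0.62 for Kynu and -0.34 ± 1.06 for Kmo (SE).

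Haao, the step before quinolinate, had 9, 17 and 32 reads in controls 1 to 3 against 10, 12 and 12 reads in knockouts 1 to 3. Control 3 was the highest library at 1.59 CPM, and the knockouts, at 0.466 to 0.549 CPM, overlapped with control 1. Qprt had 8, 57 and 10 reads in controls (0.406, 2.82 and 0.498 CPM) and 115, 29 and 17 in knockouts (5.36, 1.33 and 0.747 CPM). Knockout 1, the lowest knockout for Tdo2, was the highest for Qprt, at 4.04 times knockout 2 (95% counting interval 2.67 to 6.30) and 7.18 times knockout 3 (4.29 to 12.7). The log2 fold changes were -0.90 ± 0.54 for Haao and 0.99 ± 1.06 for Qprt (SE). Without knockout 1 that of Qprt turned to -0.24.

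Of the 8 members, 6 passed the filter and 1, Tdo2, was called by edgeR's quasi-likelihood test at a Benjamini-Hochberg adjusted p below 0.05, as were 4.31% of all genes tested (2.42% higher and 1.89% lower in the knockouts). Groups that did not overlap were found for 2 of the 6 tested members, Tdo2 and Afmid, both higher in the knockouts, against 40.7% of all tested genes (21.5% higher and 19.1% lower). Nothing is read from these counts, since the contrast was known when the set was proposed. The median log2 fold change of the 6 was 0.12, and that of all tested genes -0.08. With all 6 libraries the edgeR adjusted p of Tdo2 was 0.0326. DESeq2, which called 26.6% of all genes given an adjusted p, gave 6.17e-17, and the authors' deposited DESeq2 table gives 4.96e-17. The call of Tdo2 held without control 3 (edgeR adjusted p = 0.0236). It ended without control 1 (0.0539), control 2 (0.0619), knockout 1 (0.0639), knockout 2 (0.196) or knockout 3 (0.185). Without knockout 1, 2 or 3, edgeR called 2, 0 and 0 of all genes tested. The log2 fold change of Tdo2 stayed between 7.86 and 8.77 as each library was left out. Its call also ended with limma voom (adjusted p = 0.0691). Without control 3, the control with 1 read of Ido1, that gene passed the filter through its reads in controls 1 and 2. It was then called as well, with a log2 fold change of -5.50 ± 1.10 (SE), as were 3209 of the 18656 genes tested in that fit. Nothing is read from this call, since the library left out was the control as low as the knockouts.

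**Figure D3:**
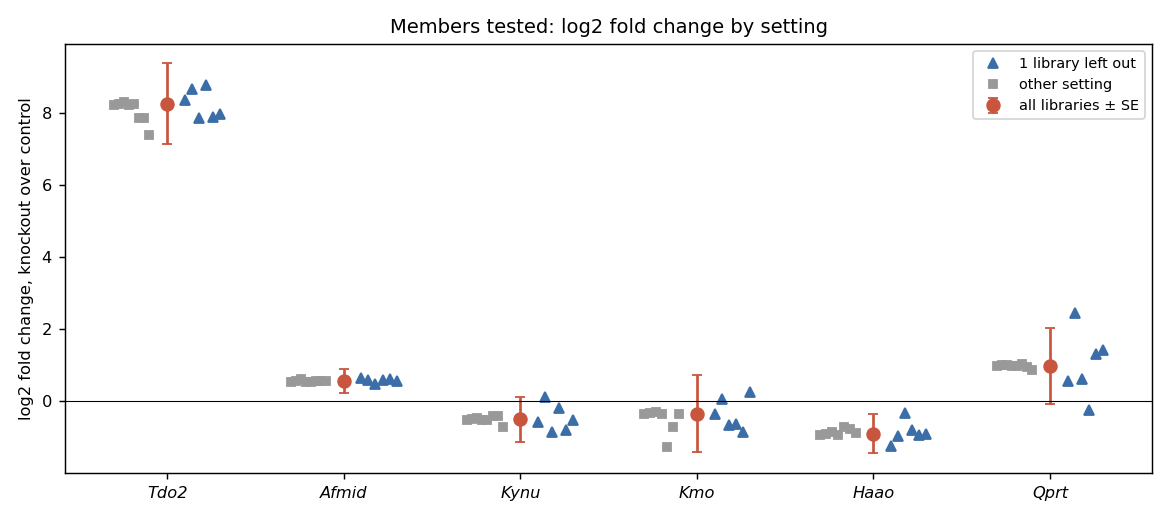
Log2 fold change, knockout over control, of the 6 members tested. Red circles with bars are the fit to all 6 libraries ± SE, blue triangles the fits that leave out 1 library, and grey squares the other settings. Tdo2 stays between 7.38 and 8.77, whereas Kynu, Kmo and Qprt each cross 0 when some library is left out.

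Per kilobase, the order of the members was led by Tdo2 in the knockouts only. Its lowest knockout level, 5.37 CPM per kb, was above the highest of the next member, Afmid, at 1.19 CPM per kb. Afmid (mean 1.15 CPM per kb) and Qprt (0.937) overlapped, and Qprt at its lowest, 0.283, was above Kynu at its highest, 0.231. Kynu (0.167), Haao (0.110), Kmo (0.0782), Ido1 (0.0420) and Ido2 (0.0377) followed, each overlapping with the next. In the controls the order was Ido1 (1.36), Afmid (0.773), Qprt (0.470), Kynu (0.235), Haao (0.206), Tdo2 (0.103), Kmo (0.0987) and Ido2 (0.0970). There each member overlapped with its neighbour in the order.

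Profiles across the 6 libraries were compared with those of other tested genes with a mean of at least 5 CPM by the root mean square difference of centred log2 CPM. The genes nearest to Tdo2 were Ms4a15 (0.56), the cytochrome P450 gene Cyp2a5 (0.78) and the trypsin inhibitor gene Spink1 (0.84). All of them were lower in knockout 1 than in knockouts 2 and 3, which follows from picking them for nearness to the Tdo2 profile. Ms4a15 stood at 13.0, 41.6 and 46.1 CPM in knockouts 1 to 3, and Cyp2a5, which has near-identical relatives, at 514.2, 2543.5 and 3436.2 CPM. The nearest genes were Abcf3 (0.03), the replication helicase gene Mcm5 and Ubald1 (0.04 each) for Afmid, and Plekhg5 (0.08), Ncoa7 (0.09) and Cdc14b (0.10) for Haao. For Kynu they were Itga8, the endothelial gene Clec14a (0.20 each) and Grap (0.21), and for Qprt Rpp25 (0.44), Cftr and Etv4 (0.47 each). The nearest to Kmo were the MHC class II gene H2-Aa and its transactivator Ciita (0.54 each) and Ednra (0.55), a comparison that rests on 0 to 14 Kmo reads per library. Counting error was left out of all these differences. Afmid had 48 to 96 reads per library and Haao 9 to 32, so which genes rank nearest to them is uncertain.

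The neighbours of Tdo2 on chromosome 3, in the gene order of GRCm38.p6, differed less or were hardly read. Ctso, a cathepsin gene, had 627, 433 and 221 reads in controls 1 to 3 and 833, 840 and 1022 reads in knockouts 1 to 3 (log2 fold change 0.93 ± 0.40 SE, edgeR adjusted p = 0.176). Asic5, an ion channel gene on the other side, had 0 reads in all controls and 4, 1 and 2 reads in knockouts 1 to 3.

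Genes that feed the route, drain it or answer to it were followed in 8 lists of 79 genes, of which 67 were tested. Of these, 4 rose in the knockouts and 0 fell by edgeR's quasi-likelihood test, that is 5.97% against 4.31% of all genes tested. At an unadjusted p below 0.05 by edgeR there were 22 genes, 11 of them lower, or 32.8% against 30.7% of all genes tested. DESeq2 called 18, of which 9 were lower, or 28.1% of the 64 to which it gave an adjusted p, against 26.6% of all such genes. limma voom called 6, of which 1 was lower, or 8.96% against 5.96% of all genes. The 4 that rose were the transporter genes Slc6a19 and Slc3a2, the NAD salvage gene Nampt and the oxidase gene Aox1. With Xist log2 CPM in the model, 3 of these calls ended, Slc6a19 and Nampt (edgeR adjusted p = 0.0790 each) and Slc3a2 (0.110), and that of Aox1 held (0.0348). Groups that did not overlap were found for 37.3% of the 67, against 40.7% of all genes tested.

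Among 9 genes for tryptophan uptake and tRNA charging, 2 rose and 0 fell, with 4 at an unadjusted p below 0.05 by edgeR, 4 called by DESeq2 and 3 by limma voom. Slc6a19 encodes B0AT1, the carrier that takes up neutral amino acids including tryptophan in gut and kidney. It had 3, 1 and 6 reads in controls 1 to 3 and 276, 220 and 402 reads in knockouts 1 to 3, or 0.167 ± 0.125 and 13.5 ± 3.84 CPM (SD, n = 3 each). Every knockout was far above every control (log2 fold change 6.29 ± 0.72 SE, edgeR adjusted p = 0.0260). The call ended without knockout 1, 2 or 3 (adjusted p of 0.126, 0.189 and 0.175). In those fits edgeR called 2, 0 and 0 of all genes tested, so hardly any call could hold there. Slc3a2 encodes the heavy chain that LAT1 and other light chains need at the membrane. It rose from 175.0 ± 69.2 to 771.8 ± 194.7 CPM (log2 fold change 2.14 ± 0.37 SE, edgeR adjusted p = 0.0418) and lost the call without control 2 (0.0769) or knockout 1, 2 or 3 (0.138, 0.220 and 0.211). Slc7a5, which encodes LAT1 itself, the main tryptophan carrier of many tumours, averaged 142.0 ± 35.2 CPM over controls but 89.9 ± 26.3 CPM over knockouts (edgeR adjusted p = 0.190). Wars1, the cytosolic tryptophanyl-tRNA synthetase gene, ranged from 45.3 to 106.8 CPM among controls and from 99.1 to 112.8 CPM among knockouts.

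NAD can be made from quinolinate through Qprt or recycled from nicotinamide through Nampt. Of 9 tested NAD synthesis genes, 1 rose and 0 fell, with 4 at an unadjusted p below 0.05 by edgeR, 3 called by DESeq2 and 1 by limma voom. Nampt, the rate-limiting enzyme of NAD salvage, had levels of 103.7, 91.8 and 111.0 CPM in the 3 controls against 416.4, 867.3 and 849.6 CPM in the 3 knockouts. The groups did not overlap, and knockout 1 was the lowest knockout, as for Tdo2. Its log2 fold change was 2.80 ± 0.34 SE (edgeR adjusted p = 0.0283), and the call ended without control 2 (0.0591) or knockout 1, 2 or 3 (0.0639, 0.196 and 0.175). Of 12 genes that use NAD or clear nicotinamide, Aox1, an aldehyde oxidase that also oxidises methylated nicotinamide, rose from 10.2 ± 1.05 to 100.9 ± 11.1 CPM (log2 fold change 3.30 ± 0.19 SE, edgeR adjusted p = 0.00887). It lost the call without knockout 1, 2 or 3 (0.0639, 0.125 and 0.102). None of the 12 fell by that test, where 4 had an unadjusted p below 0.05, and DESeq2 called 3 and limma voom 1.

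**Figure D4:**
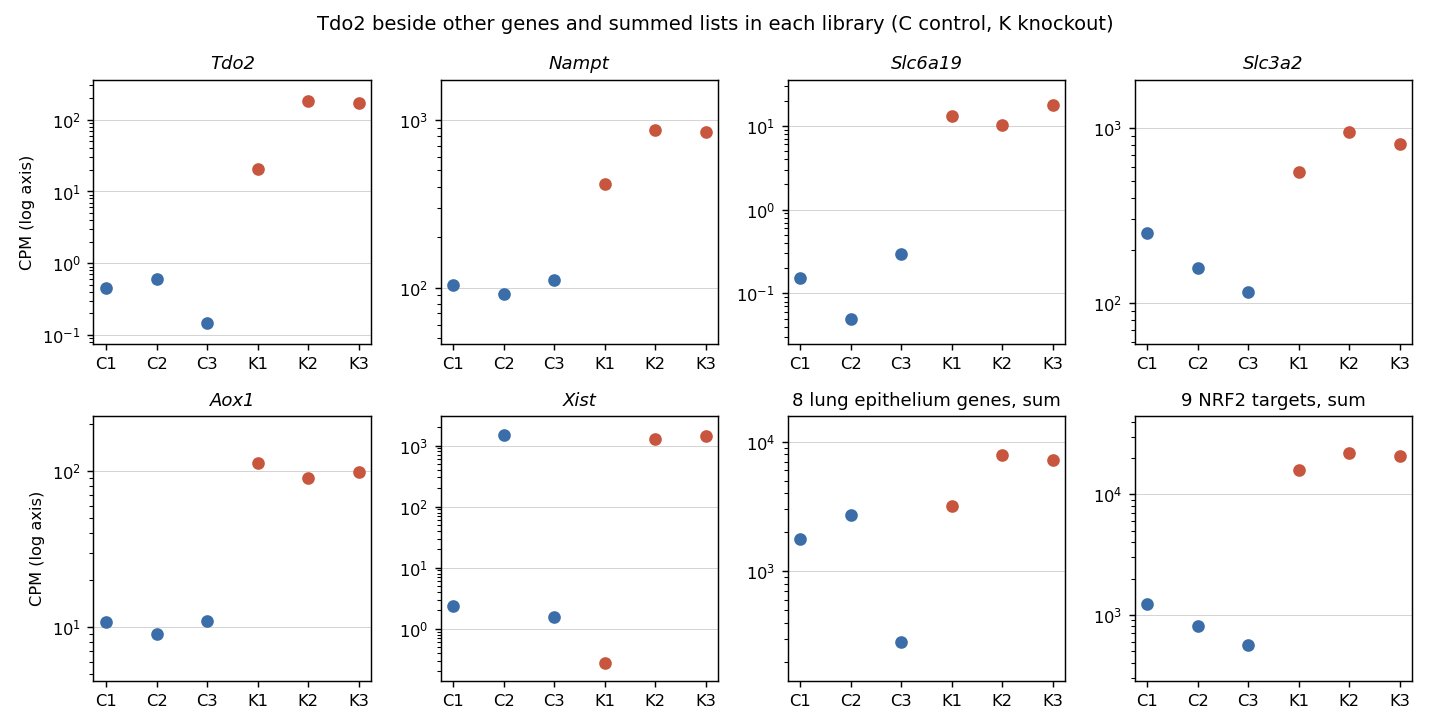
Levels in each library, on log axes, of Tdo2, the 4 related genes that rose, Xist and the sums of 8 lung epithelium genes and 9 NRF2 targets, with controls (C1 to C3) in blue and knockouts (K1 to K3) in red. Knockout 1 lies below knockouts 2 and 3 for Tdo2 (20.8 against 180.0 and 170.1 CPM), Nampt, Slc3a2, Xist and both sums, but not for Slc6a19 or Aox1.

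In the side branches that turn kynurenines into kynurenic, xanthurenic or picolinic acid, 3 of 6 genes were tested and 0 were called, with 1 at an unadjusted p below 0.05 by edgeR, 1 called by DESeq2 and 0 by limma voom. Kyat1, a kynurenine aminotransferase gene, averaged 9.13 ± 2.60 CPM over controls but 17.2 ± 0.296 CPM over knockouts, with no overlap (log2 fold change 0.92 ± 0.32 SE, edgeR adjusted p = 0.123). Got2, a mitochondrial aminotransferase gene with the same side activity, differed by 0.82 ± 0.36 SE on that scale (edgeR adjusted p = 0.182). Acmsd, which diverts the route away from quinolinate, was named after its values were seen: it had 3, 3 and 2 reads in controls and 26, 9 and 31 in knockouts, did not overlap, and was left untested by the filter.

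The serotonin branch, which competes for tryptophan, had 0 of 8 tested genes called, with 3 at an unadjusted p below 0.05 by edgeR, 2 called by DESeq2 and 0 by limma voom. Slc18a1, a vesicular monoamine transporter gene, differed in log2 by -1.60 ± 0.47 SE (edgeR adjusted p = 0.0902), and Maob, a monoamine oxidase gene, by 1.79 ± 0.67 SE (0.140). Of 6 tested genes of the aryl hydrocarbon receptor, 0 were called by edgeR, DESeq2 or limma voom, with 2 at an unadjusted p below 0.05 by edgeR. Tiparp, a usual target, differed by -0.97 ± 0.34 SE in log2 (edgeR adjusted p = 0.127). Cyp1a1, its best-known target, had 3 to 12 reads per library.

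Among the genes known to control the entry enzymes, 0 of 13 tested interferon gamma genes were called by edgeR, with 3 at an unadjusted p below 0.05, 4 called by DESeq2 and 1 by limma voom. The transcription factor gene Irf8 differed by -1.48 ± 0.31 SE in log2 (edgeR adjusted p = 0.0551) and the chemokine gene Cxcl9 by -3.36 ± 0.79 SE (0.0654). Beside the Ido1 levels of 5.84, 1.59 and 0.0498 CPM in controls 1 to 3, the 14 genes of this list summed to 806.8, 885.5 and 379.8 CPM, and in the knockouts, where Ido1 was at most 0.183 CPM, to 651.3 to 664.5 CPM. Ifng itself had at most 3 reads in any library. Of 7 tested glucocorticoid response genes, 0 were called by edgeR, with 1 at an unadjusted p below 0.05, 1 called by DESeq2 and 0 by limma voom. The receptor gene Nr3c1 differed by -0.44 ± 0.15 SE in log2 (edgeR adjusted p = 0.118) and its target Tsc22d3 by -1.78 ± 0.74 SE (0.167).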

How the data were processed

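Read counts per Ensembl gene were deposited by the authors for each of the 6 samples as whole numbers, aligned with STAR to mm39 per the submitters' processing notes. Which counter, annotation and strand setting were used is not given in the sources used here. Overlapping or near-identical genes are therefore uncertain. The authors' deposited DESeq2 table gives, per the file headers, a mean signal of scaled counts, log2 fold changes, a Wald score and p-values. Symbols came from a table pairing 52073 of 56980 identifiers, and exon lengths from GENCODE M21 (GRCm38).

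Genes were filtered with filterByExpr, scaled by TMM and compared by the two-sided quasi-likelihood test of edgeR 4.0.16 (R 4.3.3, robust, genotype only), with Benjamini-Hochberg adjustment over all 17901 genes tested. SE is the log2 fold change over the root of F. CPM uses TMM-adjusted totals, log2 CPM a prior count of 2, and intervals are 95% exact, for counting error only, as are floors of 3 reads. Alternatives used limma 3.58.1 and DESeq2 1.42.0.

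The members and gene lists were chosen with earlier results of these data known. Named genes were all members, Keap1, in each related list up to 4 genes past the threshold or else the 2 with the smallest p, and for each member with at least 10 reads in 3 libraries the 3 nearest profiles. Others, among them Slc7a5, Wars1, Acmsd, Cyp1a1, Ifng, Xist, Tk1, Birc5 and the marker genes, were named after their values were seen. Some listed genes are counted but not reported here by name. Alternatives were other scalings, filters and tools, leaving out each library, the replicate block and, chosen after seeing the data, a term for Xist.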

Additional observations from a re-analysis of the deposited data

How the results depend on the processing

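The direction of Tdo2, Afmid and Haao held in each alternative that gave a value. The log2 fold change of Kynu turned to 0.12 without control 2, that of Kmo to 0.08 without control 2 and 0.27 without knockout 3, and that of Qprt to -0.24 without knockout 1. Leaving out 1 library gave -0.84 to 0.12 for Kynu, -0.84 to 0.27 for Kmo and -0.24 to 2.46 for Qprt. The cause was not tested. Against 771 genes changed, edgeR called 465 with no filter, 0 with the sample number as a replicate block (4026 at an unadjusted p below 0.05) and 27 with Xist level as a term, and DESeq2 called 4642. Leaving out 1 library gave 0 (without knockout 2 or 3, with 3372 and 3321 at an unadjusted p below 0.05) to 3209 (without control 3). Against 1 member called, limma voom called 0, where Tdo2 had an adjusted p of 0.0691, and the replicate block 0, where it had 0.117. Leaving out 1 library gave 0 to 2. Against 4 related genes called, DESeq2 called 18, the block 0 and the Xist term 1, and leaving out 1 library gave 0 to 16. Deviations of same-numbered samples from their group means correlated at 0.018, 0 and 0.051, and those of differently numbered samples at -0.062 to 0.053. The same-numbered samples thus stood out by no higher correlation, which cannot exclude a shared source. Members other than Tdo2 had at most 115 reads in a library, which limits what could be detected.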

Other observations

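Some genes outside the route differed between single libraries. Ddc, the decarboxylase of the serotonin and dopamine routes, stood at 1123.5 CPM in control 3, against 14.3 and 16.8 CPM in controls 1 and 2 and 1.89 to 23.7 CPM in knockouts. Tph1, which commits tryptophan to serotonin, had 164 reads in knockout 1 and 25 in each of knockouts 2 and 3. Knockout 1 also held most reads of the fibrinogen gene Fgb, with 84 against 1 in each of knockouts 2 and 3 and 0 in the controls. Cyp1b1, a target of the aryl hydrocarbon receptor, stood at 303.9 CPM in control 1 and 131.4 CPM in knockout 1, against 13.5 to 34.8 CPM elsewhere, and the receptor gene Ahr at 329.4 CPM in control 1, the library with the most Ido1. These genes were picked after their values were seen. Among the marker lists, edgeR called the club cell gene Scgb3a2, from 15.0 ± 11.4 to 284.7 ± 115.7 CPM (SD, n = 3 each, adjusted p of 0.0391). It also called Batf3, a transcription factor of dendritic cells, from 11.8 ± 5.47 to 55.1 ± 4.60 CPM (0.0391). The 9 dendritic cell markers, Batf3 included, summed to 76.2, 53.2 and 37.4 CPM in controls 1 to 3 and 79.5, 76.9 and 69.4 CPM in knockouts 1 to 3. Batf3 alone made up 18.1, 9.27 and 8.12 CPM of these sums in controls and 59.2, 50.1 and 56.0 CPM in knockouts. Of the 6 markers tested, 4 had a negative log2 fold change.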
